A study of Sus scrofa with 24 samples.

Results

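Liver expression was examined for 9 oxidoreductase genes of the pig that handle carbonyls, polyols and retinoids, all outside the family of 17-beta-hydroxysteroid dehydrogenases. They were SORD, AKR1A1, DHDH, DHRS4, RDH16, SDR9C7, SDR42E1, HSDL2 and HSD11B1. The genes were picked by name from 13463 genes of the deposited tables, with earlier results of these libraries known, several of them because they were higher after testosterone. Their difference between testosterone-treated and control pigs is therefore given as a description, without a test. All 9 were among the 8279 genes with enough counts to be tested.

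RNAseq data were available for livers of 24 pigs, hybrids of Large White, Landrace and Duroc, with 1 library per pig. Sustanon, a mixture of testosterone esters, had been injected into the neck muscle at 4 mg/kg b.w. in 8 pigs, labelled as 3 castrated boars, 3 sows and 2 uncastrated boars. Myodin, a preparation of the anabolic steroid nandrolone, had been given at 5 mg/kg b.w. to 8 pigs, labelled as 2 castrated boars, 3 sows and 3 uncastrated boars. The 8 control pigs were 3 castrated boars, 3 sows and 2 uncastrated boars. In the main phase the treated pigs received 5 injections, 4 days apart from day 94 of the trial, and were slaughtered 4 days after the last one. The study also describes an earlier single injection of each preparation in a preclinical phase, with Myodin at a lower dose. Uncastrated boars are called boars below, and castrated boars and sows together are called pigs without testes. The testes are the main source of testosterone in the male. The control pigs had been kept in a room of their own, so that room and treatment cannot be told apart.

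Counts summed to between 9267780 and 14017276 per library. The Y-linked gene EIF1AY went against the label in 3 control libraries. It had 1 count in the library labelled castrated boar 15 and 476 and 434 counts in those labelled sow 16 and sow 18, against 327 to 564 in the other males and at most 3 in the other sows. All 3 carry a label without testes and were kept under it, but EIF1AY does not show whether these pigs had testes. Serum steroids, which the study also measured, were not used here. In addition, the data column of Sustanon sow 6 carries the group code of the castrated Sustanon boars. Hepatocyte markers such as ALB and APOA1 summed to between 109473 and 248530 CPM per library, where CPM are counts scaled to a common library size, and each was detected in every library. In bulk liver, fewer cells of a type and less RNA per cell cannot be told apart.

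The enzymes move hydrogen between a carbonyl and an alcohol with NADPH or NADH as the partner. In the polyol pathway glucose is reduced to sorbitol, which sorbitol dehydrogenase oxidizes to fructose. Retinol is oxidized to retinal and then to retinoic acid, the ligand of nuclear receptors, and carbonyl reductases can take retinal back to retinol. Most of the 9 genes encode short-chain dehydrogenases. DHDH, AKR1A1 and SORD are not among them, and of these AKR1A1 is an aldo-keto reductase and SORD belongs with the alcohol dehydrogenases of medium chain length.

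Levels of different genes were compared as TPM, the length-scaled share of a gene's transcripts in its library. The 9 genes fell into 7 abundant and 2 scarce ones. DHRS4 had the highest median with 1556 TPM over the 24 libraries, followed by HSD11B1 with 1437, RDH16 with 946, SORD with 569, DHDH with 359, AKR1A1 with 301 and HSDL2 with 271 TPM. SDR42E1 had a median of 14.6 TPM and SDR9C7 one of 10.4 TPM. Neighbours in this order were not always apart. HSD11B1 was above RDH16, SORD above DHDH, and HSDL2 above SDR42E1 in all 24 libraries, but DHRS4 was above HSD11B1 in 13 of 24, SDR42E1 above SDR9C7 in 13 of 24 and AKR1A1 above HSDL2 in 15 of 24. The order also pools the treatments. In controls alone the mean was higher for HSD11B1 (1418 ± 196 TPM) than for DHRS4 (1096 ± 806 TPM). It was also higher for HSDL2 (260 ± 55.5 TPM) than for AKR1A1 (234 ± 60.0 TPM, SD, n = 8 each). The spread over libraries also differed. HSD11B1 lay between 1095 and 1980 TPM, which is a ratio of 1.81 between the highest and the lowest library, and HSDL2 spanned a ratio of 2.0. DHRS4 spanned a ratio of 7.23, SDR42E1 one of 7.64 and SDR9C7 one of 46.1.

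**Figure D1:**
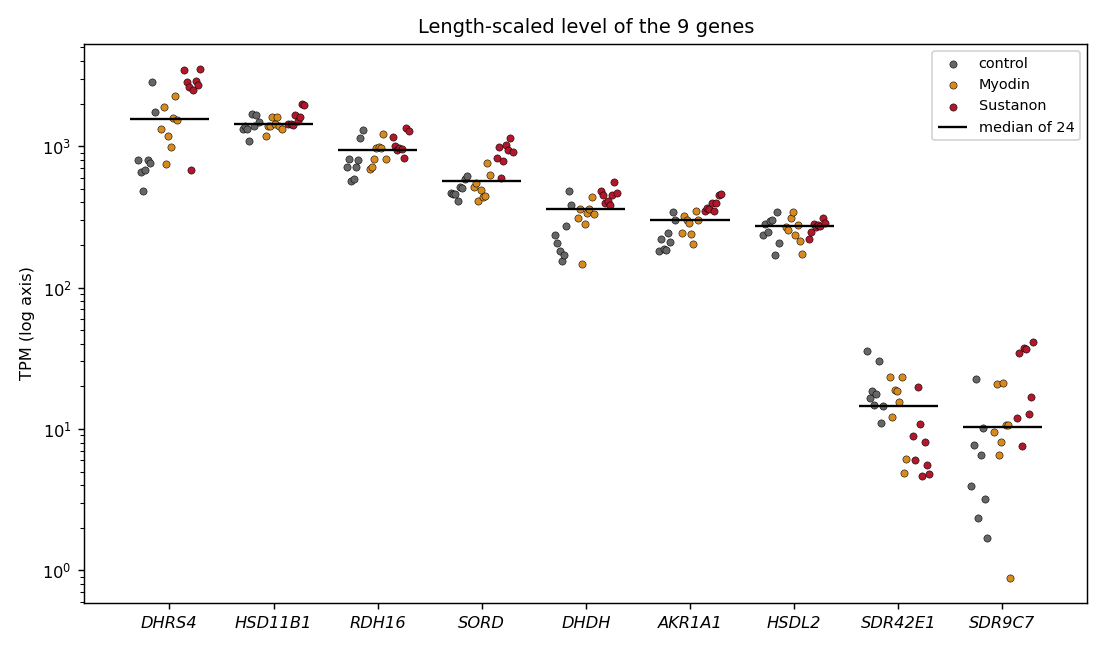
TPM of each gene (log axis) in the 24 libraries, coloured by treatment, with the median as a bar and the genes ordered by it. SDR42E1 and SDR9C7 lie far below the other 7 genes, and DHRS4, SDR42E1 and SDR9C7 are spread widest.

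After Sustanon, 6 of the 9 genes were more than 0.5 above the controls on the log2 scale, 1 was lower and 2 were nearly level. In CPM normalized between libraries, SORD was at 2899 ± 585 (SD, n = 8) with Sustanon and 1605 ± 138 (SD, n = 8) in controls. DHRS4 was at 1778 ± 564 against 716 ± 460 CPM (SD, n = 8 each). SDR42E1 went the other way, with 14.7 ± 8.02 against 34.3 ± 13.5 CPM (SD, n = 8 each). The log2 fold changes, with their standard errors, were 1.74 (0.52) for SDR9C7, 1.31 (0.31) for DHRS4, 0.85 (0.14) for SORD, 0.85 (0.16) for DHDH, 0.75 (0.12) for AKR1A1, 0.58 (0.18) for RDH16, 0.19 (0.09) for HSD11B1, 0.07 (0.13) for HSDL2 and -1.22 (0.32) for SDR42E1. The median over the 9 genes was 0.75, against -0.01 over all 8279 genes. As these values took part in the choice of the genes, nothing is drawn from them. Without the 3 libraries that went against their label, the log2 fold changes were 0.83 for SORD, 0.65 for AKR1A1, 0.74 for DHDH, 1.03 for DHRS4, 0.42 for RDH16, 2.47 for SDR9C7 and -1.12 for SDR42E1.

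Each gene was then followed over the libraries, split by treatment and by testes. In pigs without testes, 4 of the 9 genes (SORD, AKR1A1, DHDH and RDH16) had all 6 Sustanon libraries on one side of all 6 control libraries. Over all tested genes this held for 3.31%, and the rule used this contrast, so that nothing is read from the count.

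SORD encodes sorbitol dehydrogenase, which makes fructose from sorbitol, and spans chr1:126659198-126701084 of Sscrofa11.1. In control pigs without testes it lay between 1423 and 1666 CPM (median 1549, n = 6), and in control boars it was at 1647 and 1883 CPM. With Sustanon, pigs without testes lay between 1779 and 3518 CPM (median 2907, n = 6), and the boars were at 3529 and 2750 CPM. All Sustanon-treated pigs without testes were above all such controls, and the lowest of them was castrated boar 3. With Myodin, castrated boars 8 and 9 were at 1740 and 1780 CPM, sows 10, 11 and 12 at 1429, 1484 and 1498 CPM, and boars 22, 23 and 24 at 1359, 2527 and 2208 CPM. Myodin boar 22 was thus the lowest of all 24 libraries, while the other two Myodin boars exceeded every control. The Sustanon difference was alike on the log2 scale without testes (0.86, standard error 0.15) and in boars (0.83, standard error 0.27).

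AKR1A1 encodes aldehyde reductase, which also turns glucuronate into gulonate (chr6:165811245-165825168). Control pigs without testes lay between 126 and 178 CPM (median 154, n = 6), and control boars were at 221 and 211 CPM. Sustanon-treated pigs without testes lay between 242 and 306 CPM (median 276, n = 6), and Sustanon-treated boars were at 322 and 312 CPM. Sustanon-treated pigs of either kind were above every control pig. Myodin-treated castrated boars were at 188 and 241 CPM, sows at 239, 197 and 189 CPM, and boars at 143, 257 and 239 CPM. The 5 Myodin-treated pigs without testes were therefore all above the 6 controls without testes, and all were below the Sustanon range, with castrated boar 9 at 241 CPM next to its lower end.

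DHDH encodes dihydrodiol dehydrogenase, an NADP-dependent enzyme that oxidizes dihydrodiols of aromatic hydrocarbons (chr6:54210693-54217250). It lay between 121 and 179 CPM in control pigs without testes (median 154, n = 6) and at 268 and 238 CPM in control boars. Sustanon-treated pigs without testes lay between 237 and 338 CPM (median 330, n = 6), and Sustanon-treated boars were at 394 and 307 CPM. Control boars were thus above all controls without testes and overlapped the lower end of the Sustanon range, which was again castrated boar 3. With Myodin, the values were 222 and 247 CPM in castrated boars, 127, 186 and 243 CPM in sows and 229, 336 and 259 CPM in boars.

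DHRS4 encodes a peroxisomal short-chain reductase that uses NADPH to reduce retinal and other carbonyls (chr7:75242121-75255594). Its controls without testes lay between 370 and 522 CPM (median 500, n = 6), and its control boars were at 1697 and 1135 CPM. Sustanon-treated pigs without testes had a median of 1908 CPM (n = 6), with 5 libraries between 1635 and 2245 CPM and sow 4 at 487 CPM, within the range of the controls. Sustanon-treated boars were at 1764 and 2228 CPM. In Myodin-treated pigs, castrated boars were at 944 and 1286 CPM, sows at 547, 758 and 713 CPM, and boars at 1037, 1570 and 1150 CPM. All Myodin-treated pigs were above all controls without testes. DHRS4 has close relatives in the genome, and how reads shared between them were counted is not given in the sources used here.

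RDH16, a retinol dehydrogenase of the endoplasmic reticulum that also oxidizes hydroxysteroids, and SDR9C7, a relative best known from the skin barrier, lie beside each other on chromosome 5. In Sscrofa11.1 SDR9C7 is at chr5:22228041-22251622 and RDH16 at chr5:22251751-22266801, with 128 bases between them. RDH16 lay between 937 and 1393 CPM in control pigs without testes (median 1040, n = 6) and was at 1686 and 2166 CPM in control boars. With Sustanon it lay between 1530 and 2055 CPM without testes (median 1852, n = 6), and in boars it was at 2527 and 2374 CPM. Myodin-treated castrated boars were at 1127 and 1156 CPM, sows at 1366, 1526 and 1683 CPM, and boars at 1496, 2452 and 1373 CPM. Control boars thus lay inside or above the Sustanon range of pigs without testes.

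SDR9C7 was measured with 9 to 375 counts per library. It lay between 2.42 and 23.6 CPM in control pigs without testes (median 6.73, n = 6), with the highest value in the library labelled castrated boar 15, and the control boars were at 2.49 and 1.42 CPM. Sustanon-treated pigs without testes lay between 6.43 and 36.7 CPM (median 22.3, n = 6), and Sustanon-treated boars were at 14.9 and 35.6 CPM. The groups without testes overlapped, while in boars both treated libraries were above both controls. With Myodin, castrated boars were at 9.17 and 19.4 CPM, sows at 6.54, 6.97 and 20.7 CPM, and boars at 9.44, 10.2 and 0.865 CPM. Across the 24 libraries the log2 CPM of the adjacent genes SDR9C7 and RDH16 correlated with r = 0.27, and with r = 0.27 after the means of the 6 groups of treatment and testes had been removed.

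SDR42E1 is a short-chain dehydrogenase related to steroid dehydrogenases (chr6:6387280-6400371) and was the only one of the 9 genes with a lower level after Sustanon. It lay between 29.1 and 58.1 CPM in control pigs without testes (median 33.8, n = 6) and at 16.6 and 24 CPM in control boars. Sustanon-treated pigs without testes lay between 8.70 and 31.9 CPM (median 14.7, n = 6), with castrated boar 3 as the highest and the only one to overlap the controls, and Sustanon-treated boars were at 9.35 and 7.82 CPM. Myodin-treated castrated boars were at 42.4 and 21.1 CPM, sows at 35.4, 30.1 and 28.6 CPM, and boars at 38.5, 8.74 and 11.7 CPM. Boar 22, the Myodin boar with the lowest SORD, had the highest SDR42E1 of that group.

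HSDL2, a peroxisomal protein that combines a dehydrogenase with a sterol carrier domain (chr1:253124358-253191309), and HSD11B1, which regenerates active cortisol from cortisone (chr9:133231451-133278396), varied least. HSDL2 lay between 288 and 580 CPM in all libraries, with means of 450 ± 98.2 in controls, 465 ± 78.4 with Myodin and 473 ± 47.6 with Sustanon (SD, n = 8 each). HSD11B1 was at 1079 ± 98.8 CPM in controls, 1107 ± 74.1 with Myodin and 1233 ± 161 with Sustanon (SD, n = 8 each). For both genes the ranges of the 3 treatments overlapped. The Sustanon-treated boars, at 1455 and 1381 CPM, had the highest HSD11B1 of all libraries.

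**Figure D2:**
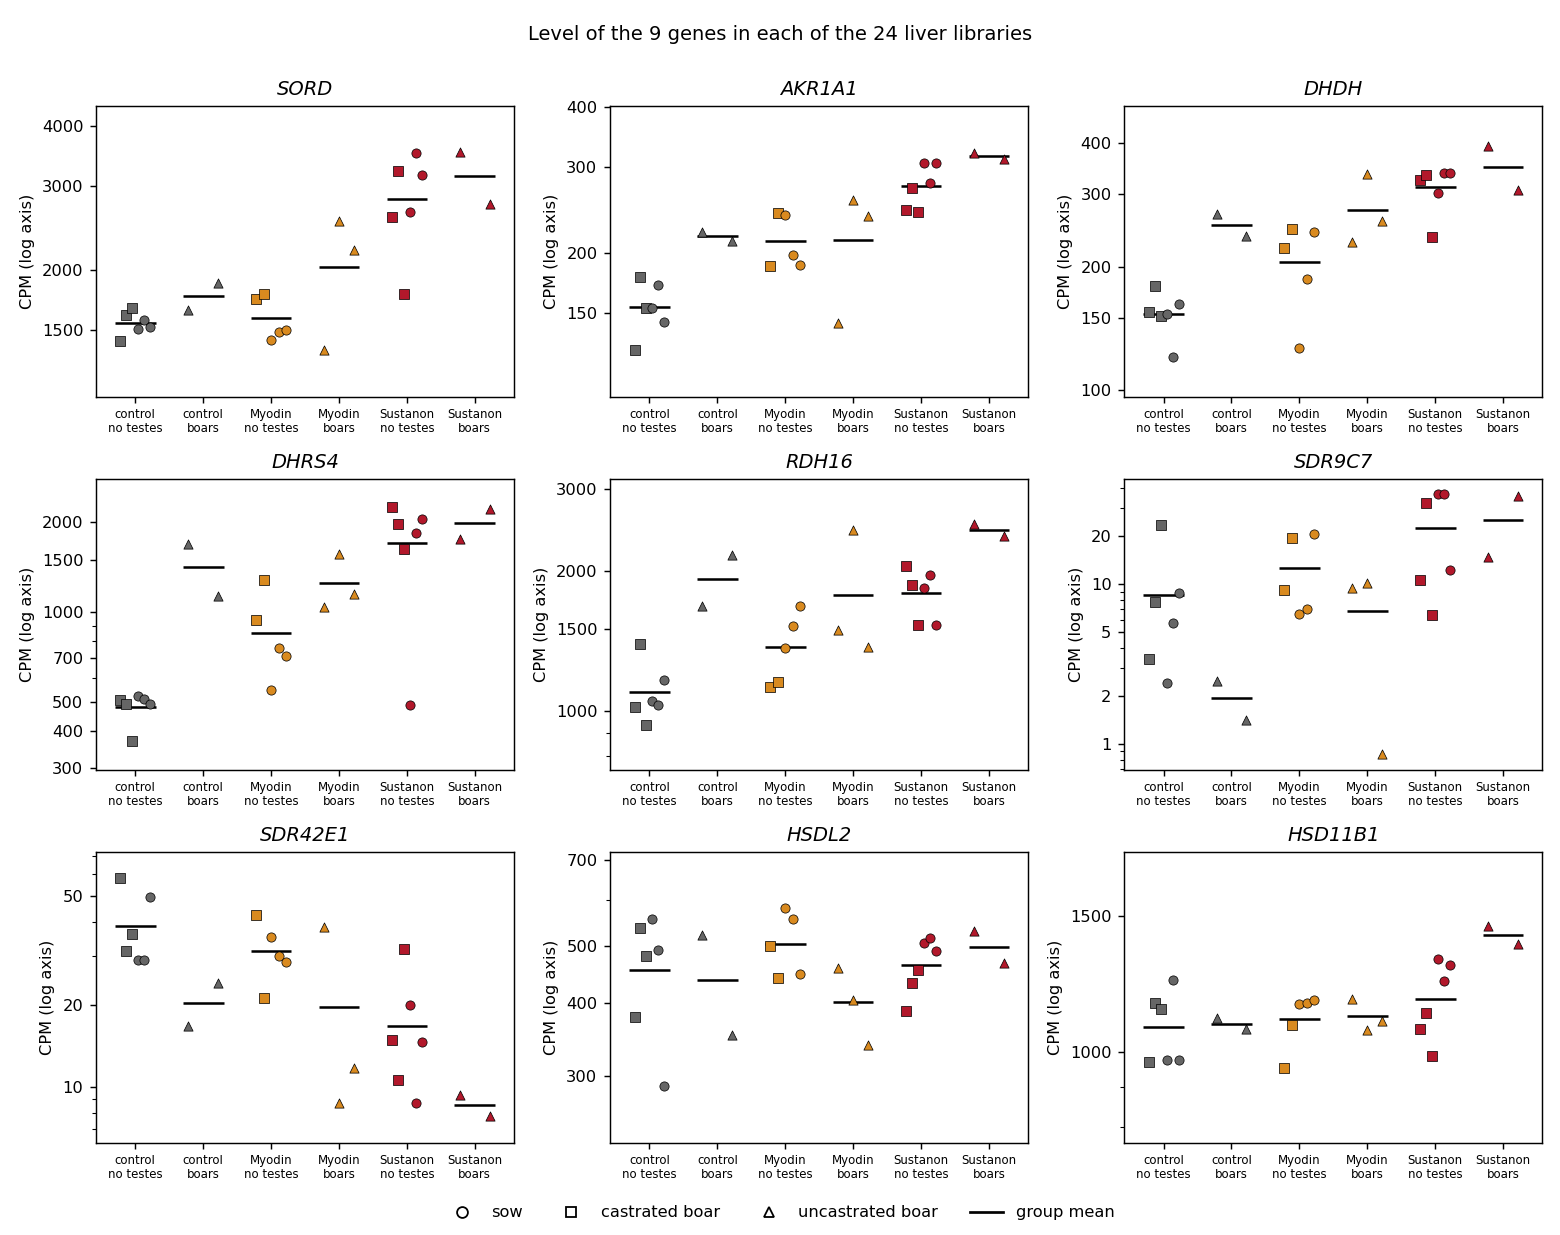
CPM of the 9 genes (log axis) in each library, by treatment and testes, with the group mean as a bar and the marker showing sow, castrated boar or uncastrated boar. DHRS4 of Sustanon sow 4 (487 CPM) lies among the controls. The 2 control boars lie above the 6 controls without testes for AKR1A1, DHDH, DHRS4 and RDH16, and below them for SDR42E1. The share of all genes apart in this way was not computed, and these controls took part in the choice of the genes, so that nothing is read from it.

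Whether a pig's own testes go with the same genes was tested in pigs that had not received Sustanon, as the mean of the difference between boars and pigs without testes in controls and in Myodin-treated pigs (5 boars against 11 pigs). DHRS4, RDH16 and DHDH were higher in boars and passed the test, while the other 6 genes did not. DHRS4 was at 1318 ± 295 CPM (SD, n = 5) in boars and 649 ± 265 CPM (SD, n = 11) in pigs without testes. Its log2 fold change was 1.06 with a standard error of 0.23 (adjusted p = 0.0104 by edgeR's quasi-likelihood test). RDH16 was at 1834 ± 458 against 1224 ± 236 CPM (log2 fold change 0.59, standard error 0.14, adjusted p = 0.0149 by the same edgeR test). DHDH was at 266 ± 42.2 against 177 ± 43.6 CPM (log2 fold change 0.57, standard error 0.13, adjusted p = 0.0159 by the same edgeR test). Of all genes tested, 5.27% were called in this comparison and 2.62% were called higher in boars, against 3 of the 9 genes, all 3 higher. The median log2 fold change was 0.25 over the 9 genes and 0.00 over all genes.

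The groups were not fully apart. All 5 boars exceeded the highest control without testes for DHRS4 and DHDH, and 4% of all genes had no overlap between these libraries in either direction, but Myodin-treated pigs without testes reached 1286 CPM for DHRS4, 247 CPM for DHDH and 1683 CPM for RDH16, above the lowest boars at 1037, 229 and 1373 CPM. For SORD (0.27, adjusted p = 0.292) and AKR1A1 (0.25, adjusted p = 0.225) the log2 fold change was positive and the edgeR test was not passed. SDR9C7 (-1.5, standard error 0.60, adjusted p = 0.150) and SDR42E1 (-0.81, standard error 0.31, adjusted p = 0.136) had negative values that did not pass the edgeR test, and HSDL2 (-0.20, adjusted p = 0.443) and HSD11B1 (0.01, adjusted p = 0.953) had small ones. The fitted value of SDR9C7 in boars was thus opposite in sign to that of the Sustanon comparison.

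The comparison by testes shares the control libraries with the one on which the genes were picked. In Myodin-treated pigs alone, which share none with it (3 boars against 5 pigs, chosen after the data had been seen, with the spread estimated over all 24 libraries), the log2 fold changes were 0.56 for DHRS4 (adjusted p = 0.332 by edgeR), 0.42 for DHDH (adjusted p = 0.200) and 0.37 for RDH16 (adjusted p = 0.273), and 0 of the 9 genes passed the test, against 2.54% of all genes. With castrated boars as the only reference the values were 0.91, 0.44 and 0.72 (adjusted p = 0.0627, 0.188 and 0.118 by edgeR), again with 0 of the 9 genes called, where 0.253% of all genes were. Without the 3 libraries against their label, all 3 genes still passed (adjusted p = 0.0395 for DHRS4, 0.0414 for DHDH and 0.0483 for RDH16 by edgeR), with 3.72% of all genes called. Single boars decided the calls. Without control boar 25 the adjusted p by edgeR was 0.0912 for DHRS4 and 0.0964 for DHDH, and without control boar 27 it was 0.145 for RDH16. Without control boar 25, control boar 27 or Myodin boar 23, 1 of the 9 genes passed each time, where 1.34%, 1.06% and 3.5% of all genes did. Without Myodin boar 22, the boar with the lowest SORD, 7.65% of all genes and 5 of the 9 passed, with AKR1A1 (adjusted p = 0.0302 by edgeR) and SDR42E1 (log2 fold change -1.28, adjusted p = 0.00775 by edgeR) beside the 3 genes above.

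Cell type markers were looked at beside this comparison, and no marker gene was called in it, in Sustanon-treated against control pigs or in Myodin-treated against control pigs. In boars against pigs without testes all 3 red blood cell markers had negative log2 fold changes (median -0.87), as had 7 of 8 hepatocyte marker entries (median -0.13), 4 of 6 stellate and stromal markers (-0.07), 3 of 4 endothelial markers (-0.10) and 2 of 3 bile duct markers (-0.17), while 6 of 7 leukocyte and Kupffer cell markers had positive ones (0.20), beside a median of 0.00 over all genes. In control pigs the stellate and stromal markers summed to 290 and 396 CPM in the boars and 169 to 310 CPM without testes, and in Myodin-treated pigs to 171 to 228 against 171 to 373 CPM. In Myodin-treated pigs the summed level of 3 red blood cell markers, of which HBB is the most abundant, was 166 to 936 CPM in boars and 534 to 2323 CPM without testes, and that of 7 leukocyte and Kupffer cell markers was 862 to 1349 against 788 to 1212 CPM. In control pigs these sums were 772 and 1783 against 874 to 2418 CPM for the red blood cell markers, and 740 and 794 against 590 to 940 CPM for the leukocyte and Kupffer cell markers. Hepatocyte markers summed to 109473 to 153663 CPM in Myodin-treated boars and 144448 to 197398 CPM without testes, and in control pigs to 162259 and 169653 against 125010 to 233914 CPM. Of the markers, only LYZ was at 0 in any library (4 of 24). The part of these levels in the result was not tested.

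**Figure D3:**
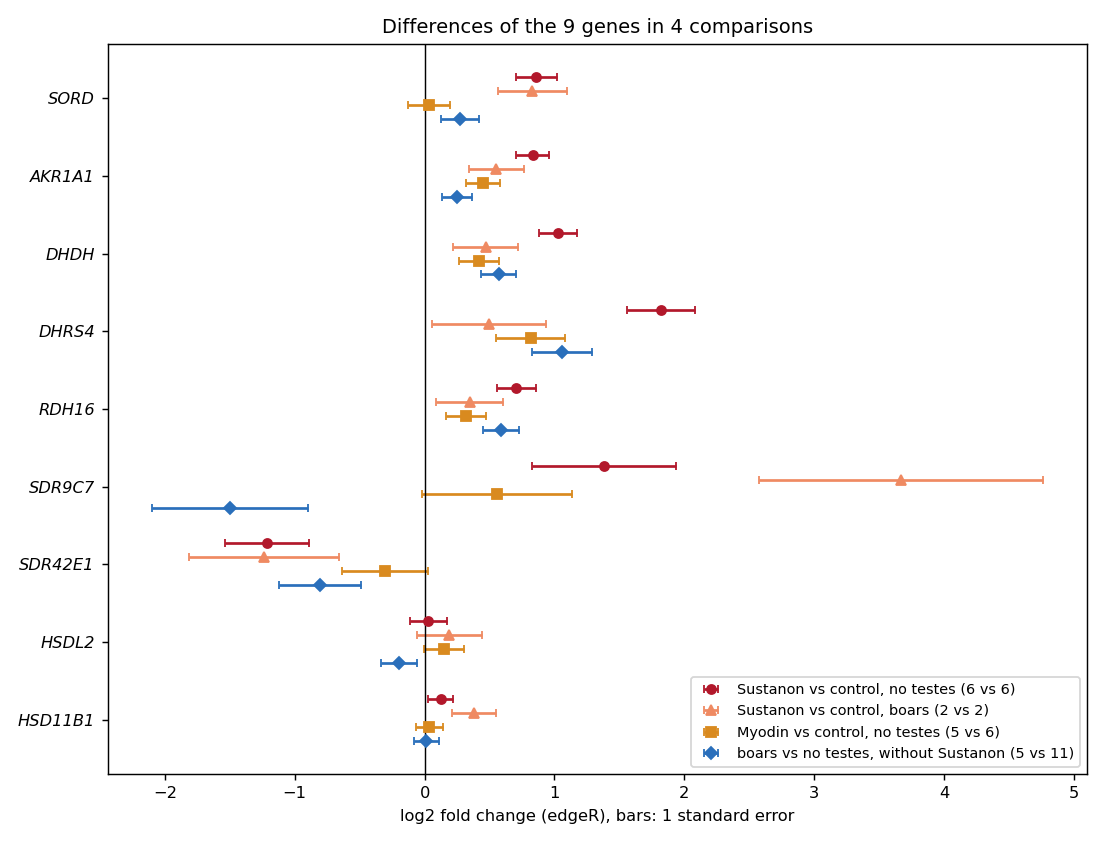
Log2 fold changes of the 9 genes with 1 standard error as bars, for Sustanon against control without testes and in boars, for Myodin against control without testes, and for boars against pigs without testes that received no Sustanon. DHRS4 has 1.82, 0.50, 0.82 and 1.06 in these comparisons, and SDR9C7 is the one gene with a large value of opposite sign, -1.5 in the comparison by testes.

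Myodin-treated pigs were compared with controls, a contrast on which the genes had not been picked but which uses the same control libraries. In edgeR's quasi-likelihood test 0 of 8279 genes passed, which is 0%, with 597 at an unadjusted p under 0.05, and DESeq2 called 1 gene and limma 0. None of the 9 genes passed. The largest log2 fold changes with an unadjusted p under 0.05 were 0.37 for DHDH (standard error 0.16, adjusted p = 0.624 by edgeR) and 0.32 for AKR1A1 (standard error 0.12, adjusted p = 0.543 by edgeR), while SORD had 0.13 and SDR42E1 -0.34. The median was 0.22 over the 9 genes and 0.00 over all genes. In pigs without testes only, 8 genes of all tested were called (0.0966%) and 0 of the 9. There DHRS4 had a mean of 849 ± 282 CPM in 5 treated pigs and 482 ± 56.4 CPM in 6 controls (SD), and its log2 fold change was 0.82 with a standard error of 0.27 (adjusted p = 0.250 by edgeR). AKR1A1 was at 211 ± 27.2 against 155 ± 18.8 CPM (log2 fold change 0.45, standard error 0.13, adjusted p = 0.189 by edgeR). For these 2 of the 9 genes all 5 treated pigs were above all 6 controls, a lack of overlap that 1.84% of all genes had in either direction. The test was not passed, and without the 3 libraries against their label the log2 fold changes were 0.75 and 0.41.

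The steroids were also set side by side, again as a description, since the Sustanon libraries took part in the choice. Sustanon-treated pigs were above Myodin-treated pigs by 1.14 on the log2 scale for SDR9C7, 0.83 for DHRS4, 0.73 for SORD, 0.48 for DHDH, 0.43 for AKR1A1 and 0.36 for RDH16, and below them by a log2 fold change of -0.88 for SDR42E1. HSD11B1 and HSDL2 differed by 0.16 and 0.02. In this comparison all 7 leukocyte and Kupffer cell markers had negative log2 fold changes (median -0.50), and 1 of them, C1QA, a complement gene of Kupffer cells, was called lower with Sustanon (-0.62, adjusted p = 0.0321 by edgeR). Of 6 stellate and stromal cell markers 5 had positive values (median 0.51), as had 7 of 8 hepatocyte marker entries (median 0.29), with 0 called in either list and 3 at an unadjusted p under 0.05 in each of the 3 lists. The part of these markers in the values of the 9 genes was not tested. The doses differed, with 4 mg/kg of Sustanon and 5 mg/kg of Myodin.

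The Sustanon difference was also set side by side in boars (2 against 2) and in pigs without testes (6 against 6). It is built from the libraries on which the genes were picked, most of them without testes, so that the values of the 9 genes are a description with no test. Of all genes, 3 passed a test of the difference between both effects by edgeR (0.0362%), 0 of the 9 among them, and nothing is read from that count. DHRS4 had a log2 fold change of 1.82 without testes and 0.50 in boars, a difference of -1.33 with a standard error of 0.51. DHDH had 1.02 without testes and 0.47 in boars (difference -0.56, standard error 0.29). SDR9C7 had 1.38 without testes and 3.67 in boars (difference 2.29, standard error 1.19). For SORD the difference was -0.03 (standard error 0.31).

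Castrated boars were compared with sows, with the treatment as a covariate. In edgeR 0 genes passed (0%), with 816 at an unadjusted p under 0.05, against 19 genes by DESeq2 and 0 by limma, and 0 of the 9 genes passed by any of them. DHRS4 had the largest positive value (log2 fold change 0.33, standard error 0.23, adjusted p = 0.679 by edgeR). This comparison rests on 8 castrated boars and 9 sows and includes the 3 libraries against their label.

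The genes moved together to different degrees. Over the 24 libraries, which share their groups and were scaled together, 25 of 36 pairs of genes had a positive Pearson's r of log2 CPM and 12 were above 0.5. SORD correlated with AKR1A1 at r = 0.83 and with DHDH at r = 0.83, and DHDH with DHRS4 at r = 0.83. SDR42E1 was negative with all other genes, most so with SORD (r = -0.86) and AKR1A1 (r = -0.83). After the means of the 6 groups had been removed, 19 pairs were positive and 2 were above 0.5, SORD with AKR1A1 (r = 0.63) and SORD with DHDH (r = 0.61). The negative relation of SDR42E1 with SORD (r = -0.78) and AKR1A1 (r = -0.72) was then little smaller, while that of DHDH with DHRS4 was 0.36. HSDL2 and HSD11B1 had r = 0.42 with each other over all libraries and 0.47 within groups. These are descriptions of the 24 libraries, part of which follows from the choice of genes by their response to Sustanon.

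**Figure D4:**
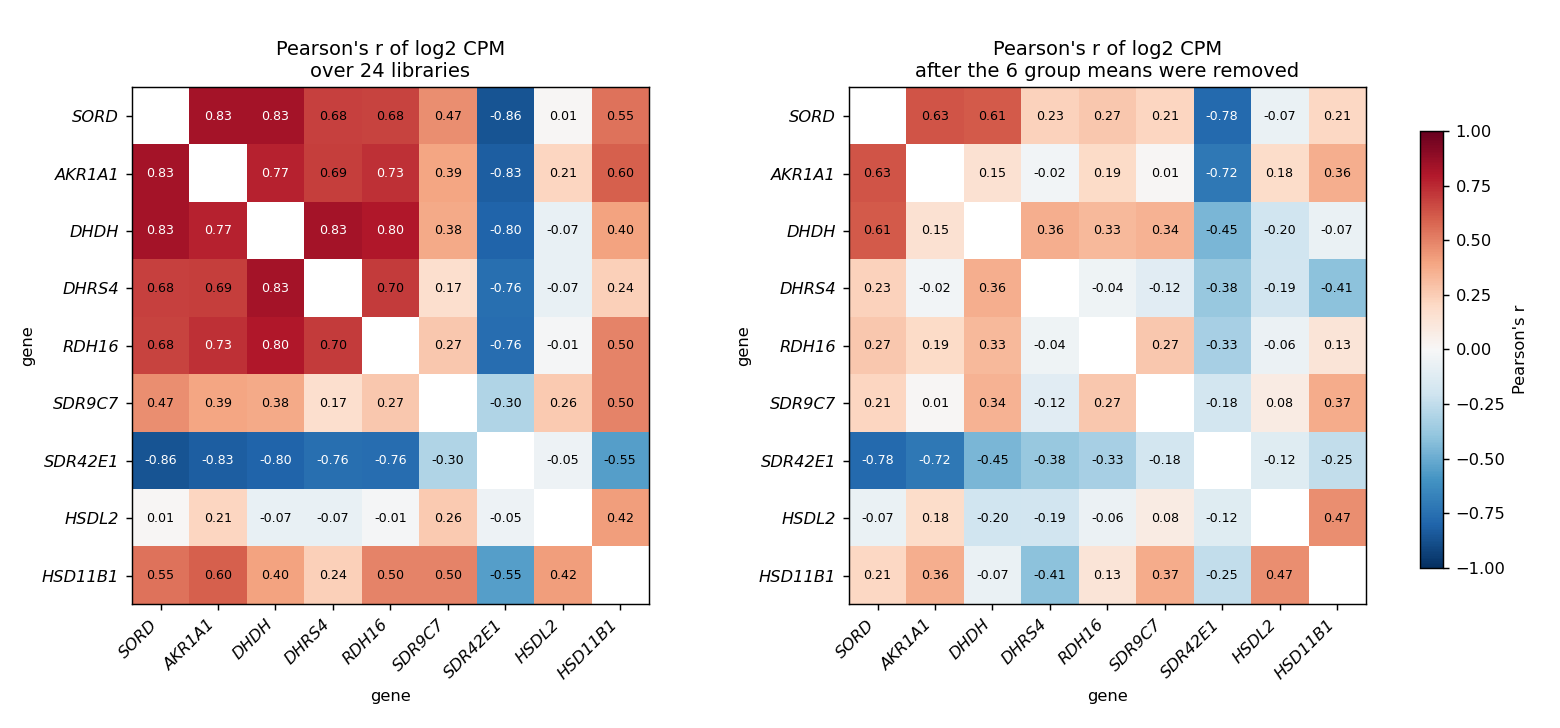
Pearson's r of log2 CPM for each pair of the 9 genes over 24 libraries (left) and after the means of the 6 groups of treatment and testes were removed (right). The row of SDR42E1 is negative on both sides, and most positive values among DHDH, DHRS4 and RDH16 are smaller on the right.

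**Figure D5:**
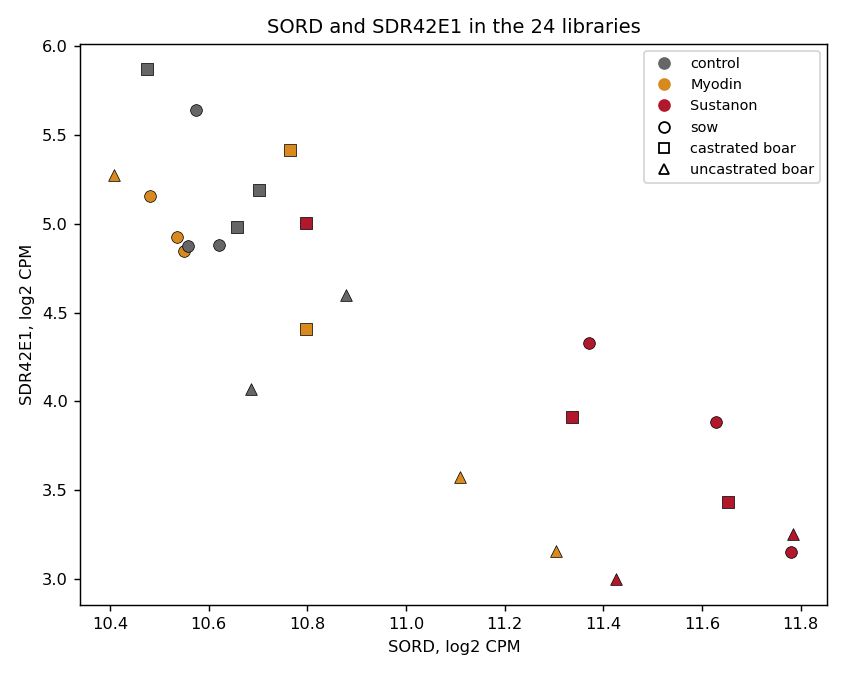
Log2 CPM of SDR42E1 against that of SORD, one point per library, coloured by treatment with the marker showing sow, castrated boar or uncastrated boar. The libraries follow one falling band (r = -0.86), with Sustanon castrated boar 3 and Myodin boar 22 at the end of the controls.

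For each gene, the named genes with the most similar profile over the 24 libraries were taken by Pearson's r of log2 CPM. SORD was closest to FMO1 (r = 0.94), TET3 (0.92) and MLH3 (0.91). SDR42E1 was closest to HSD17B2 (r = 0.93), PARM1 (0.92) and HSD17B11 (0.90). DHRS4 was closest to TERF2 (r = 0.88), THEM5 (0.85) and MAPK4 (0.84), and RDH16 to TMEM184A (0.84) and MAPK4 (0.83), so that MAPK4 was near both retinoid enzymes. The group means of treatment and testes were left in for these values. DHRS4 and RDH16 themselves had r = 0.70 over the 24 libraries and r = -0.04 after the group means were removed. AKR1A1 and DHDH shared PLAAT5 as the nearest gene (r = 0.88 and 0.89). For SDR9C7 it was C1orf56 (r = 0.86), for HSDL2 DIAPH2 (0.83) and for HSD11B1 DHRS3 (0.79), which encodes a retinal reductase of the same superfamily.

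Other genes of the same pathways, taken from lists made with earlier results known and without the 9 genes, were examined in the same fits. In the Sustanon comparison, where 5.07% of all genes were called, 1 of 4 aldo-keto and carbonyl reductases, 2 of 7 genes of polyol, fructose and glucuronate metabolism, 3 of 18 of retinol and retinoic acid metabolism, 4 of 22 other short-chain dehydrogenases, 1 of 10 aldehyde dehydrogenases, 0 of 7 of glucocorticoid activation and 0 of 7 of NADPH supply were called by edgeR's quasi-likelihood test. DHRS3 is on both the retinol and the short-chain list and is counted in each. Of the glucocorticoid and NADPH genes, 3 and 2 had an unadjusted p under 0.05, with H6PD on both lists and in both counts. Beside these calls, 5 of 6 stellate and stromal markers had positive log2 fold changes (median 0.32), as had 7 of 8 hepatocyte entries (0.19). Negative were 5 of 7 leukocyte and Kupffer cell markers (-0.07) and 3 of 4 endothelial ones (-0.12). So were all 3 bile duct (-0.21) and 3 red blood cell markers (-0.38). Without testes, stellate and stromal sums were 269 to 394 CPM with Sustanon and 169 to 310 CPM in controls. The part of the markers in these calls was not tested.

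On the polyol and glucuronate side MIOX, which opens inositol to glucuronate, was at 19.7 ± 11.4 CPM with Sustanon and 59.9 ± 37.7 CPM in controls (SD, n = 8 each), with a log2 fold change of -1.61 (adjusted p = 0.0369 by edgeR). Among retinoid genes DHRS3 (0.55, adjusted p = 0.0432) and RDH10 (0.50, adjusted p = 0.0368), a retinol dehydrogenase, were higher, while RDH11, a retinal reductase, was lower (-0.90, adjusted p = 0.0352, all by edgeR). PTGR1, a reductase of prostaglandins and alkenals (0.64, adjusted p = 0.0196), BLVRB, biliverdin reductase B (0.72, adjusted p = 0.0114), DECR1 of unsaturated fatty acid oxidation (0.56, adjusted p = 0.0396) and ALDH1L2 of mitochondrial folate metabolism (0.86, adjusted p = 0.0155) were higher, and NMRAL1, an NADPH sensor, was lower (-0.69, adjusted p = 0.0114, all by edgeR). Without the 3 libraries against their label, edgeR called 0 genes in this comparison (1199 at an unadjusted p under 0.05), and all of these calls were lost, while the log2 fold changes kept their sign. They were then 0.57 for PTGR1, 0.69 for BLVRB, 0.58 for DECR1, 0.78 for ALDH1L2, -0.68 for NMRAL1, 0.41 for DHRS3, 0.43 for RDH10, -0.91 for RDH11 and -1.29 for MIOX. With only the library labelled control castrated boar 15 left out, edgeR no longer called MIOX (-1.42, adjusted p = 0.0839) or RDH11 (-0.91, 0.0541). The same held for DHRS3 (0.54, 0.0766), RDH10 (0.49, 0.0662) and DECR1 (0.55, 0.0765). DHRS3 (adjusted p = 0.0618) and DECR1 (0.0563) also missed the threshold by edgeR without the count filter, and RDH10 (0.0557) by limma.

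In boars against pigs without testes, MIOX was again lower (-1.66, adjusted p = 0.0154 by edgeR), with a mean of 17 ± 9.11 CPM in the 5 boars and 58.5 ± 32.2 CPM in the 11 pigs without testes (SD). BLVRB (0.46, adjusted p = 0.0468), UXS1, which makes UDP-xylose from UDP-glucuronate (0.28, adjusted p = 0.0468), and FKBP5, a co-chaperone of steroid receptors (1.24, adjusted p = 0.00942 by edgeR), were higher, and no other gene of these lists passed. These 4 of 71 genes, each counted once, are 5.63%, close to the 5.27% called over all genes, so that nothing is read from their number. The calls of BLVRB and UXS1 were marginal. Without the 3 libraries against their label the adjusted p by edgeR was 0.0741 and 0.0727, without the library labelled control castrated boar 15 it was 0.0599 and 0.0573, without the count filter 0.0635 and 0.0988, and with control and Myodin libraries only 0.0570 and 0.0688. With single libraries left out, BLVRB passed in 7 and UXS1 in 4 of 24 fits, with adjusted p up to 0.190 and 0.201 without control boar 25. MIOX passed in 22 of 24 such fits, with an adjusted p of up to 0.107 without control boar 27, and FKBP5 in 23, with 0.0577 without control boar 25. With castrated boars as the only reference, MIOX (0.0667), FKBP5 (0.0740), BLVRB (0.160) and UXS1 (0.337) all missed the threshold of the adjusted p by edgeR, and in Myodin-treated pigs alone FKBP5 (0.0135) passed and MIOX (0.107), BLVRB (0.0912) and UXS1 (0.149) did not. The controls enter both comparisons. In Myodin-treated against control pigs, none of the genes of these 7 lists passed.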

How the data were processed

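RNA libraries of liver were sequenced by the authors, the reads trimmed with Skewer, mapped with STAR 2.5 and quality-checked with FastQC. The submitters' processing notes name Sscrofa11.1 as the build. The counting tool and the handling of reads shared by similar genes are not given in the sources used here. The authors deposited raw read counts for each gene and the same libraries as log2(TPM + 1). Gene positions and spans were taken from the RefSeq annotation of Sscrofa11.1, with symbols as in the deposited tables (3779 of 13463 genes have none, of which 359 were named from the reference table).

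Counts were tested with edgeR 4.0.16 in R 4.3.3 by the two-sided quasi-likelihood test after TMM scaling and a filter on low counts (filterByExpr), with Benjamini-Hochberg adjustment over 8279 genes and calls under 0.05. The study names DESeq2, which was run as an alternative. Sustanon and Myodin were compared with control in a fit of the 3 treatments, comparisons by testes came from a fit of 6 groups, and castrated boars against sows from an additive fit. Log2 CPM used a prior count of 2, and deposited log2 values were converted back to TPM. The genes and lists were chosen with earlier results of these data known. Named genes are the 9 genes, the called genes of the lists (at most 5 per list) and the 3 most similar genes to each of the 9. Of these, 1 called gene and 1 similar gene are left out of the text. Marker lists covered hepatocytes, bile duct, stellate and stromal, endothelial, leukocyte and Kupffer, and red blood cells. On simulated counts of 8279 genes, edgeR recovered 99.0% of genes changed by a log2 of 1.5 and 74% of those changed by 0.75 in Sustanon against control, and 96.0% and 72% in the comparison by testes. Apart from these changes, the simulated libraries shared a common mean per gene, with the spread of the 6-group fit and no other difference by testes. Recovery in the real Sustanon comparison, fitted with the 3 treatments only, can therefore be lower.

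Alternatives were DESeq2 1.42.0, limma 3.58.1 on the deposited log2 values, RLE normalization, no count filter, a prior count of 0.5, the sex label as a covariate, fewer libraries, and each library left out in turn. P-values measure the spread between pigs, with 1 library each.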

Additional observations from a re-analysis of the deposited data

Results flagged for a closer look

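Values per gene were screened for single libraries far from the rest of their group in the 27 combinations of a gene and a group of 4 to 10 pigs of one treatment and testes status, where chance gives about 1 in 20, and 3 stood out. Gaps and ranges were taken on the log2 CPM scale. DHRS4 of Sustanon sow 4 was at 487 CPM, against 1635 to 2245 CPM in the other 5 Sustanon-treated pigs without testes, with a gap of 0.792 of the group's range in log2 CPM. In the same library SDR9C7 was at 36.5 CPM and AKR1A1 at 306 CPM, near the upper end of their group. DHRS4 of the library labelled control castrated boar 15 was at 370 CPM, below the other 5 controls without testes at 490 to 522 CPM (gap of 0.817 of the log2 range); the library is 1 of the 3 that went against their label. DHDH of Sustanon castrated boar 3 was at 237 CPM, against 302 to 338 CPM in the others (gap of 0.687 of the log2 range), and this pig also had the lowest SORD (1779 CPM) and the highest SDR42E1 (31.9 CPM) of its group.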

How the results depend on the processing

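SDR9C7, with as few as 9 counts in a library, had the largest standard errors of the 9 genes. The number of genes called in Sustanon against control pigs was 272 without the library labelled control castrated boar 15 and 0 without the 3 libraries against their label, compared with 420, and lay between 198 and 613 with single libraries left out. In boars against pigs without testes, 436 genes and 3 of the 9 were called, with 21 and 0 when castrated boars were the only reference and 210 and 0 in Myodin-treated pigs alone, the latter chosen after seeing the data. With single libraries left out, 88 to 636 genes and 1 to 5 of the 9 were called. For Myodin against control without testes, 8 genes were called, with 3 without control castrated boar 15, 0 without the 3 libraries (501 at an unadjusted p under 0.05), 5 without the count filter, 69 by DESeq2, 3 by limma, and 3 to 16 with single libraries left out. Castrated boars against sows gave 0 genes, 14 without the 3 libraries and 19 by DESeq2. Myodin against control gave 0 genes and 1 by DESeq2. For the dependence of the Sustanon difference on testes, 3 genes were called, 33 by DESeq2, 6 by limma, and 0 to 5 with single libraries left out. The cause was not tested, beyond the smaller number of libraries in some of these fits.

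Small values changed sign. SDR9C7 in castrated boars against sows was -0.22 without control castrated boar 15 and -0.19 without the 3 libraries, compared with 0.23. Without the 3 libraries, HSD11B1 was -0.00374 for Myodin against control, -0.018 in boars and -0.0265 for Myodin without testes, and the difference of SDR42E1 between the Sustanon effects in boars and without testes was 0.00332, or 0.0366 by limma. With single libraries left out, HSDL2 for Myodin against control ranged from -0.0162 to 0.10, HSD11B1 in boars from -0.0114 to 0.0351, SORD for Myodin without testes from -0.0131 to 0.0669, SORD and SDR9C7 in castrated boars against sows from -0.0594 to 0.0676 and from -0.22 to 0.45, and the difference between effects from -0.22 to 0.14 for SORD, -0.26 to 0.27 for SDR42E1 and -0.10 to 0.48 for HSDL2. The differences between effects are a description, and none of the other values passed a test.

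RLE normalization, DESeq2, limma, no count filter, and control and Myodin libraries alone each left DHRS4, RDH16 and DHDH called in the comparison by testes. No paired analysis was possible because each pig has a number of its own and the groups compared share none.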

Other observations

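In Myodin-treated pigs without testes, both retinoid enzymes parted castrated boars from sows, in opposite directions. DHRS4 was at 944 and 1286 CPM in castrated boars and at 547, 758 and 713 CPM in sows, while RDH16 was at 1127 and 1156 CPM in castrated boars and at 1366, 1526 and 1683 CPM in sows. In Sustanon-treated pigs HSD11B1 was at 1071, 1122 and 988 CPM in castrated boars and at 1320, 1235 and 1295 CPM in sows. Such a separation was not seen in controls, where HSD11B1 was at 971, 1156 and 1137 CPM in castrated boars and at 977, 1239 and 976 CPM in sows, though 3 of these libraries went against their label. These differences were noticed after the values were seen, and were not tested within a treatment. With so few pigs on each side, such gaps arise easily by chance. The share of all genes with a gap of this kind was not computed, so that nothing is read from them.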
